A study of Brassica napus with 2 samples.

Results

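*IAA18* and *IAA28* are members of the *Aux/IAA* family, and their orthologs in rapeseed (*Brassica napus*) are described here in seedlings kept with or without auxin. The members were the *B. napus* *Aux/IAA* genes assigned to the *Arabidopsis* genes AT1G51950 (*IAA18*) or AT5G25890 (*IAA28*) by orthology, without use of their expression. The rule gave 9 genes, 5 orthologs of *IAA18* and 4 of *IAA28*, out of 119 *Aux/IAA* genes in the genome. All 9 had expression values, as did 84 other *Aux/IAA* genes, in a table of 63193 genes. RNA was sequenced from whole 30-day-old seedlings after 3 h with 1 μM the auxin IAA (indole-3-acetic acid) and from control seedlings without IAA. The control is described as liquid Murashige and Skoog medium in the methods of the study and as ddH20 in the sample labels. Each library came from 10 pooled seedlings, and each condition had 1 library, so that the conditions have no replicates, no spread between replicates and no test. No cultivar, genotype or transgene is spelled out for the seedlings in the sample labels. The sample titles, WTFIAA (control) and WTZIAA (IAA), both open with the letters WT. Markers of seedling organs could not be checked, because 0 of the 63193 gene identifiers could be paired with a gene name in the reference table.

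Aux/IAA proteins are short-lived nuclear repressors of auxin signaling. At low auxin they bind auxin response factors (ARFs) through their carboxy-terminal domains and recruit TOPLESS corepressors through an amino-terminal motif. Auxin acts as a glue between the degron in domain II and the F-box receptors TIR1/AFB, after which the repressor is ubiquitinated and degraded and the ARFs are freed. Many *Aux/IAA* genes are themselves targets of ARFs. In *Arabidopsis*, *IAA28* acts in the root, where it takes part in the specification of lateral root founder cells, and a stabilised IAA28 protein strongly reduces lateral roots. *IAA18* of *Arabidopsis* acts in the patterning of the embryo apex and in lateral root initiation, as seen in mutants with a stabilised protein. Both belong with *IAA26*, which encodes a phytochrome-associated protein, to subgroup B2 of the family tree.

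The 9 genes are placed on the Darmor-*bzh* genome v4.2. Among the orthologs of *IAA18*, *BnaA06.IAA.2* (BnaA06g02010D) lies on chromosome A06 from 1171331 to 1173011 and its homeolog *BnaC06.IAA.1* (BnaC06g05090D) on C06 from 5733839 to 5735582. *BnaA08.IAA.1* (BnaA08g01770D) lies on A08 from 1461048 to 1463174. Its homeolog *BnaC03R.IAA.1* (BnaC03g78000D) lies from 6296658 to 6298661 on the unanchored sequence of C03. *BnaC06.IAA.3* (BnaC06g09250D), on C06 from 11046331 to 11047524, has no A-subgenome partner in the orthologous sets. Among the orthologs of *IAA28*, *BnaA06.IAA.5* (BnaA06g27950D) lies on A06 from 19219712 to 19221058 and its homeolog *BnaC07.IAA.3* (BnaC07g28990D) on C07 from 33931348 to 33932673. *BnaA09.IAA.1* (BnaA09g04430D) lies on A09 from 2170676 to 2171743 and its homeolog *BnaC09.IAA.1* (BnaC09g03870D) on C09 from 2167271 to 2168503. The gene models of the *IAA18* orthologs encode proteins of 253 to 273 amino acids and those of the *IAA28* orthologs proteins of 174 to 195 amino acids. Within pairs the models are alike, with 5 exons in all 4 paired *IAA18* orthologs and 4 exons in *BnaA06.IAA.5*, *BnaC07.IAA.3* and *BnaC09.IAA.1*. The exception is *BnaA09.IAA.1*, with 3 exons. The models of *BnaA09.IAA.1* and *BnaC06.IAA.3* span 1068 and 1194 bp around open reading frames of 1067 and 1193 bp, so that they hold next to no untranslated sequence, which enters the length that their values are scaled by.

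Levels are given as FPKM, fragments per kilobase of transcript, normalised to the size of the library. A gene with few fragments can take only multiples of the value of 1 fragment, and this step placed the depth of the control library at 23650000 fragments and that of the IAA library at 18300000. Fragments of each member were estimated from these depths. From them come the 95% intervals below, exact Poisson intervals for a level and exact binomial (Clopper-Pearson) intervals for a ratio between libraries. The intervals cover counting error only and leave out differences between pools of seedlings. How the software assigned fragments that fit more than 1 homeolog is not known, so that levels of single copies are less certain than sums of copies.

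The orthologs of *IAA28* included the most abundant transcripts among the 9 genes. *BnaC07.IAA.3* was at 63.3 FPKM in the control (interval from 59.0 to 67.7) and at 48.2 FPKM with IAA (44.0 to 52.6). Its homeolog *BnaA06.IAA.5* was at 37.0 FPKM (33.8 to 40.5) and 28.7 FPKM (25.5 to 32.1). Both genes of this pair were thus lower in the IAA library, and in neither did the counting intervals of the libraries overlap. In the control they stood above 96.8% and 93.8% of all genes in the table, respectively. The other pair was expressed at far lower levels. *BnaC09.IAA.1* was at 5.99 FPKM in the control (4.62 to 7.63) and at 8.48 FPKM with IAA (6.60 to 10.7), and *BnaA09.IAA.1* at 3.57 FPKM (2.46 to 5.01) and 5.76 FPKM (4.11 to 7.77). Both genes of the second pair were higher in the IAA library, with counting intervals that overlapped between the libraries.

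The orthologs of *IAA18* were weakly to moderately expressed. *BnaC06.IAA.1* led them with 12.5 FPKM in the control (11.1 to 14.05) and 8.75 FPKM with IAA (7.41 to 10.2). *BnaA08.IAA.1* was at 5.31 FPKM (4.52 to 6.18) and 3.35 FPKM (2.65 to 4.16). These genes were the *IAA18* orthologs whose intervals did not overlap between the libraries, and both were lower with IAA. *BnaC06.IAA.3* was at 4.55 FPKM in the control (3.49 to 5.86) and 5.02 FPKM with IAA (3.76 to 6.60). *BnaC03R.IAA.1* was at 1.69 FPKM (1.25 to 2.24) and 1.55 FPKM (1.07 to 2.16). The intervals of these genes overlapped between the libraries. *BnaA06.IAA.2* was near the limit of detection, at 0.410 FPKM in the control and 0.236 FPKM with IAA, which correspond to 9 and 4 estimated fragments.

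**Figure D1:**
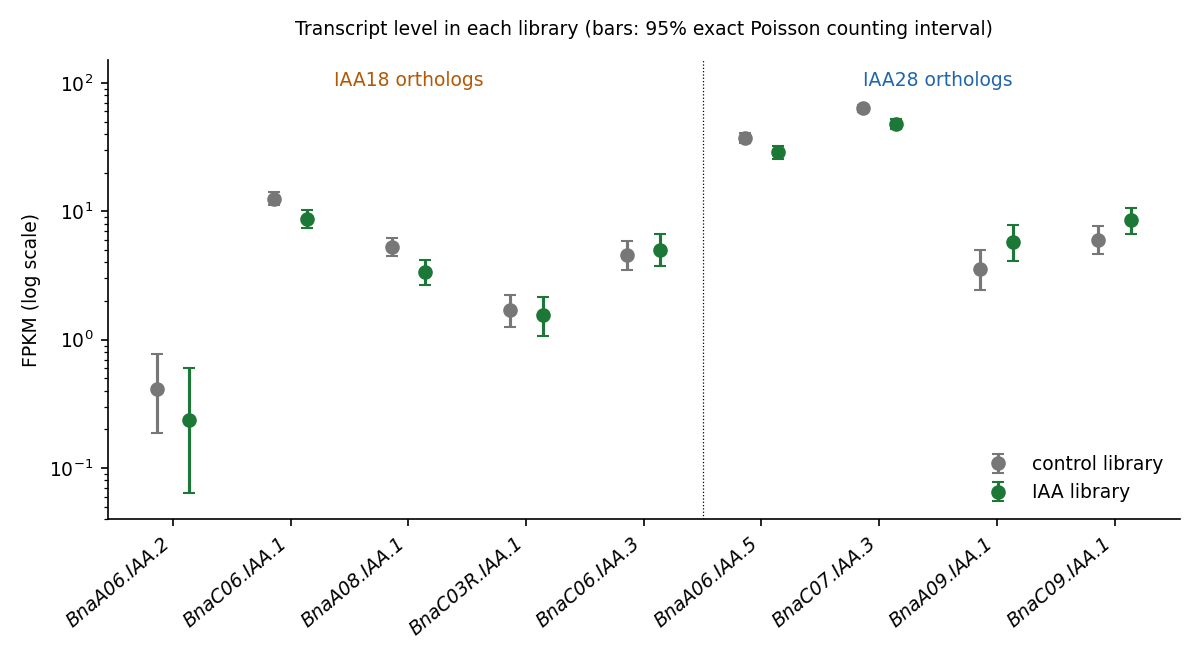
FPKM of the 9 genes (log axis) in the control library (grey) and the IAA library (green), with 95% exact Poisson intervals of the estimated fragments. *BnaC07.IAA.3* and *BnaA06.IAA.5* are the highest in both libraries and lower with IAA, whereas *BnaA09.IAA.1* and *BnaC09.IAA.1* are higher with IAA.

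The order of the levels was largely kept between the libraries. In both, *BnaC07.IAA.3* came first and *BnaA06.IAA.5* next, and *BnaC03R.IAA.1* and *BnaA06.IAA.2* came last, with each neighbour among these differing beyond counting error. *BnaC06.IAA.1* was the third in both libraries. In the control it exceeded the next gene, *BnaC09.IAA.1*, 2.09-fold (1.59 to 2.78). With IAA the ratio of these genes was 1.03 (0.775 to 1.39), so that they could not be ranked. *BnaC09.IAA.1*, *BnaA08.IAA.1*, *BnaC06.IAA.3* and *BnaA09.IAA.1* followed each other in the control, and none of these 4 differed from the next among them beyond counting error. With IAA, *BnaA08.IAA.1* stood below *BnaC06.IAA.3*, which exceeded it 1.501-fold (1.04 to 2.16). This ratio also rests on transcript lengths of 1503 bp for *BnaA08.IAA.1* and 760 bp for *BnaC06.IAA.3*, whose model holds next to no untranslated sequence.

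The comparison of the libraries gives the difference of each gene between 1 pool of seedlings after 3 h with IAA and 1 control pool. Fold changes were calculated as log2 of IAA over control after 0.1 FPKM was added to both values. By this measure 0 of the 9 genes differed by 2-fold or more in either direction. Of all 63193 genes, 4.22% passed this size upwards and 8.68% downwards, and of the 43979 genes that reached 1 FPKM in a library, 2.51% and 4.86%. The other 84 *Aux/IAA* genes included 39 that passed it upwards and 1 that passed it downwards. At a threshold of 1.5-fold, *BnaA09.IAA.1* was higher, and *BnaA08.IAA.1* and *BnaA06.IAA.2* were lower, where 8.92% and 19.3% of all genes passed, respectively. Numbers as small as these lie near the background of the table.

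Counting error was exceeded in 4 of the 9 genes, all lower with IAA. The log2 fold change was -0.65 in *BnaA08.IAA.1*, with an interval of the log2 ratio from -1.07 to -0.27. It was -0.51 in *BnaC06.IAA.1* (-0.81 to -0.23). The pair of abundant *IAA28* orthologs had nearly equal values, -0.39 in *BnaC07.IAA.3* (-0.56 to -0.23) and -0.37 in *BnaA06.IAA.5* (-0.58 to -0.16). The interval lay below 0 in 11.9% of the other *Aux/IAA* genes and above 0 in 64.3% of them. In 0 of the 9 genes did it lie above 0. The 10 other genes with an interval below 0 include all 6 orthologs of *IAA26*, which share subgroup B2 with the members. Transcript lengths were at hand for the *Aux/IAA* genes alone, so that the share of all genes with an interval below 0 is not given. As background, 24.1% of the 43979 genes that reached 1 FPKM had a lower fold change than *BnaA06.IAA.5*, the smallest difference among the 4 genes.

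For the other 5 genes the interval included 0. *BnaA09.IAA.1* had a log2 fold change of 0.67 (-0.01 to 1.39) from 33 and 41 estimated fragments, and *BnaC09.IAA.1* of 0.50 (-0.01 to 1.01) from 65 and 71. Because the IAA library was sequenced less deeply, nearly equal fragment numbers stand for a higher level there. Centring the IAA library on its expressed genes, an alternative chosen after seeing the data, moved these intervals to 0.08 to 1.48 and 0.08 to 1.097, so that for these genes the scaling decided whether counting error was exceeded. *BnaC06.IAA.3* had a log2 fold change of 0.14 (-0.42 to 0.70) and *BnaC03R.IAA.1* of -0.12 (-0.81 to 0.54). For *BnaA06.IAA.2* the log2 fold change of -0.60 rests on few fragments, and its interval ran from -2.95 to 1.04. The added 0.1 FPKM weighs on this gene, whose log2 ratio without it was -0.80.

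**Figure D2:**
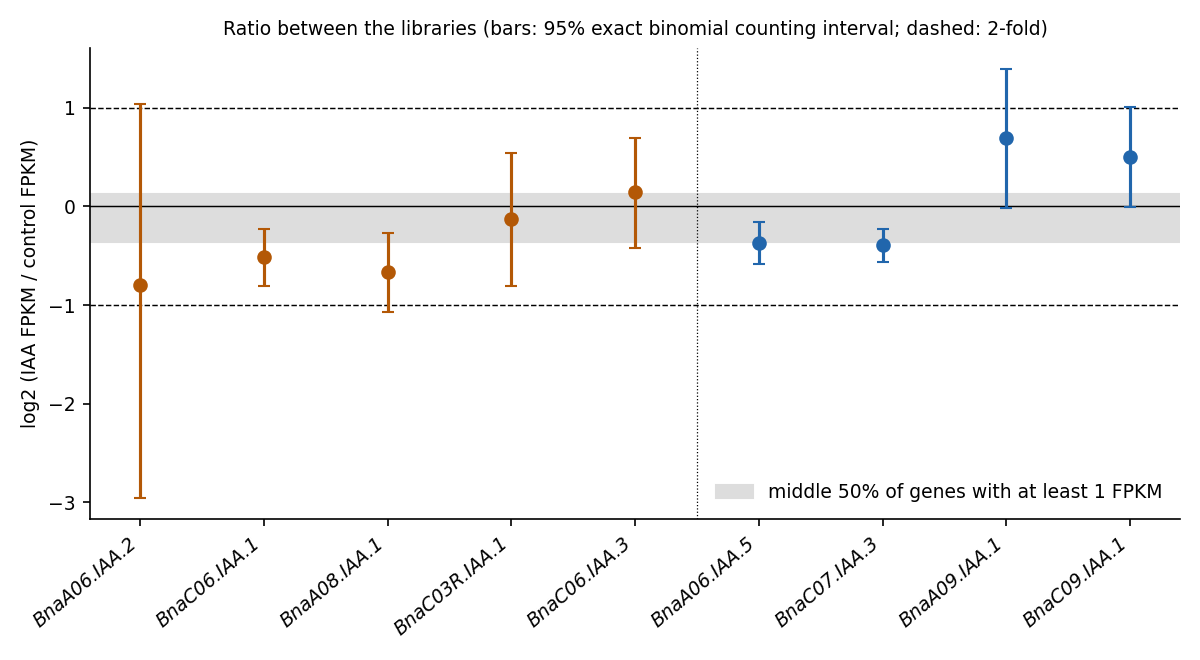
Log2 of IAA FPKM over control FPKM, with nothing added, for the *IAA18* orthologs (orange) and the *IAA28* orthologs (blue), with 95% exact binomial intervals of the estimated fragments. The grey band holds the middle 50% of the genes that reached 1 FPKM in a library, and all 9 points lie between the dashed lines at a 2-fold difference.

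The table as a whole was shifted slightly downwards with IAA, which bears on small differences such as these. The median log2 fold change was -0.13 over all genes and -0.11 over the 43979 genes that reached 1 FPKM in a library. Among these 43979 genes the middle 50% lay from -0.36 to 0.12. *BnaC06.IAA.3* and *BnaC03R.IAA.1* were close to or within that range. The abundant *IAA28* orthologs *BnaC07.IAA.3* and *BnaA06.IAA.5* stood at percentiles 22.5 and 24.1 of the fold changes of these genes, near its lower edge. *BnaA08.IAA.1* was at percentile 11.1 and *BnaC06.IAA.1* at 16.1. At the other end, *BnaA09.IAA.1* was at percentile 95.2 and *BnaC09.IAA.1* at 92.5.

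The pairs of *IAA28* orthologs thus differed in the direction of their values. Summed over the pair, *BnaA06.IAA.5* and *BnaC07.IAA.3* went from 100.3 FPKM in the control to 76.8 FPKM with IAA (log2 ratio -0.38, interval from -0.52 to -0.26). The sum of *BnaA09.IAA.1* and *BnaC09.IAA.1* went from 9.56 to 14.2 FPKM (log2 ratio 0.57, interval from 0.16 to 0.97). The log2 ratio of the weaker pair exceeded that of the stronger pair by 0.96, with an exact conditional interval of the odds ratio from 0.52 to 1.38. This difference does not depend on the scaling of the libraries, which cancels from it. The pairs were set against each other after their values had been seen, and the difference compares these libraries, not the conditions. The stronger pair was 10.5-fold above the weaker one in the control and 5.40-fold with IAA. In bulk seedlings, fewer cells that express a gene and less RNA per cell cannot be told apart.

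The pairs of *IAA18* orthologs did not show such a difference. The sum of *BnaA06.IAA.2* and *BnaC06.IAA.1* went from 12.9 to 8.98 FPKM (log2 ratio -0.52, interval from -0.81 to -0.24). The sum of *BnaA08.IAA.1* and *BnaC03R.IAA.1* went from 7.0 to 4.90 FPKM, with the same log2 ratio of -0.52 (-0.87 to -0.19). Their difference was 0.01, and its interval from -0.45 to 0.45 leaves room for differences in either direction.

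Within pairs, the copies were unequal to very different degrees. *BnaC06.IAA.1* exceeded its homeolog *BnaA06.IAA.2* 30.5-fold in the control (15.9 to 67.4) and 37.1-fold with IAA (14.2 to 138). Nearly all measured transcript of this pair therefore came from the C copy. In the pair of *BnaA08.IAA.1* and *BnaC03R.IAA.1* the A copy was higher, and the C copy reached 0.319 of its level in the control (0.226 to 0.442) and 0.463 with IAA (0.300 to 0.700). Among the *IAA28* orthologs the C copy was moderately higher in both pairs. *BnaC07.IAA.3* exceeded *BnaA06.IAA.5* 1.71-fold in the control (1.53 to 1.92) and 1.68-fold with IAA (1.45 to 1.95). *BnaC09.IAA.1* exceeded *BnaA09.IAA.1* 1.67-fold in the control (1.09 to 2.63), and with IAA the ratio was 1.47 (0.991 to 2.22). This ratio rests on gene models of unequal length and exon number.

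The homeologs of a pair did not differ from each other in their change beyond counting error. The closest agreement was between *BnaC07.IAA.3* and *BnaA06.IAA.5*, whose log2 fold changes differed by -0.03 (C copy less A copy, interval from -0.29 to 0.25). For *BnaC09.IAA.1* less *BnaA09.IAA.1* the difference was -0.18 (-1.07 to 0.69). For *BnaC03R.IAA.1* less *BnaA08.IAA.1* it was 0.53 (-0.26 to 1.32), the largest of the 4 pairs. For *BnaC06.IAA.1* less *BnaA06.IAA.2* it was 0.09, and its interval from -1.59 to 2.46 shows that the few fragments of the A copy allow no statement.

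The copies of each gene can also be read as a sum. The *IAA28* orthologs together gave 109.9 FPKM in the control and 91.1 FPKM with IAA (log2 ratio -0.27). *BnaC07.IAA.3* and *BnaA06.IAA.5* made up 57.6% and 33.7% of the control sum, and 52.9% and 31.5% with IAA. The share of *BnaC09.IAA.1* went from 5.45% to 9.31% and that of *BnaA09.IAA.1* from 3.25% to 6.32%. The *IAA18* orthologs together gave 24.5 FPKM in the control and 18.9 FPKM with IAA (log2 ratio -0.37). *BnaC06.IAA.1* alone held 51.1% of the control sum and 46.3% with IAA. *BnaA08.IAA.1* went from 21.7% to 17.7%, and *BnaC06.IAA.3*, the copy without an A partner, from 18.6% to 26.6%.

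**Figure D3:**
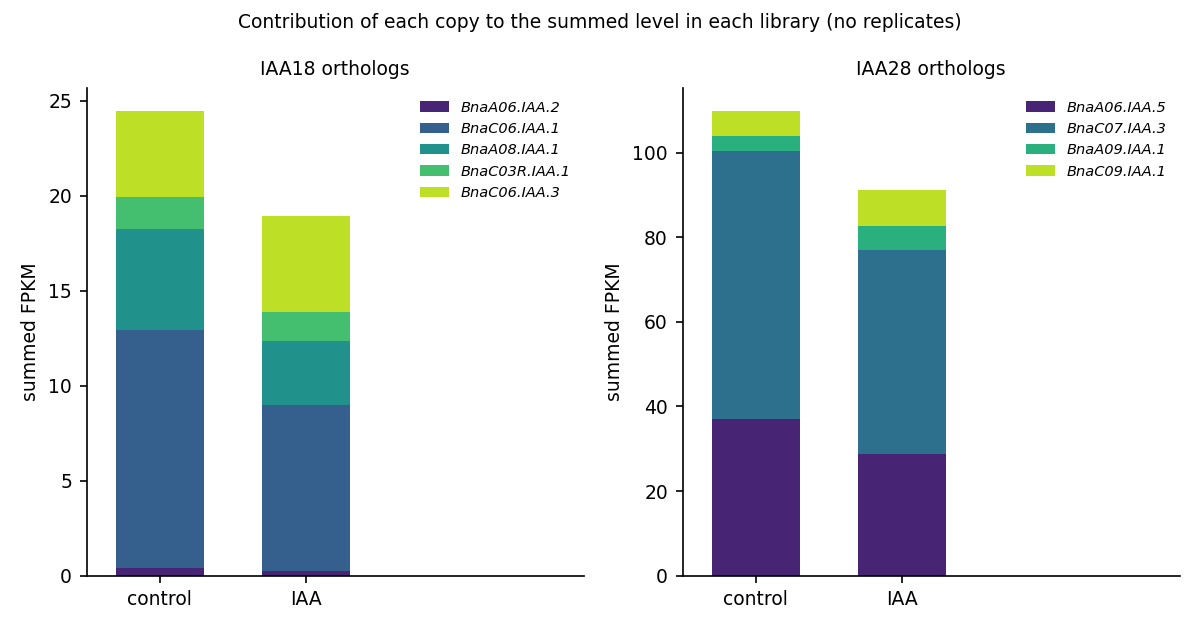
Summed FPKM of the *IAA18* orthologs (left) and of the *IAA28* orthologs (right) in each library, with each copy as a colored part of the bar; the vertical scales differ. The *IAA18* sum goes from 24.5 to 18.9 FPKM and is led by *BnaC06.IAA.1*, and the *IAA28* sum goes from 109.9 to 91.1 FPKM and is led by *BnaC07.IAA.3*.

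The 9 genes were compared with the rest of the family by their fold changes. Of the 93 genes with values, *BnaA09.IAA.1* and *BnaC09.IAA.1* had the 44th and 52nd highest fold change, and the other members lay from the 64th to the 87th place. The median log2 fold change of the 9 was -0.37, with -0.51 for the *IAA18* orthologs and 0.06 for the *IAA28* orthologs, whose median falls between a lower and a higher pair and describes neither. The median of the other 84 *Aux/IAA* genes was 0.74. The 6 orthologs of *IAA26*, the remaining set of subgroup B2, had a median of -0.54, with values from -0.95 to -0.34. All 6 were lower with IAA with an interval below 0, and 0 of them were 2-fold lower. Of 28 sets of *Aux/IAA* genes that share an *Arabidopsis* ortholog, the *IAA18* set had the 4th lowest median and the *IAA28* set the 7th lowest. The sets of AT1G80390 and AT3G17600, the 2nd and 6th lowest, hold 1 gene each. These genes were at 0.083 and 0.149 FPKM in the control, so that their places rest on few fragments. The *IAA18* median also leans on *BnaA06.IAA.2*, with 9 and 4 estimated fragments. It was -0.32 with a minimum of 1 FPKM, which leaves this gene out, and -0.19 after 1 FPKM was added. The place of the *IAA18* set is given for the main setting only. With 1 library for each condition these differences between sets have no test, and genes are not replicates.

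**Figure D4:**
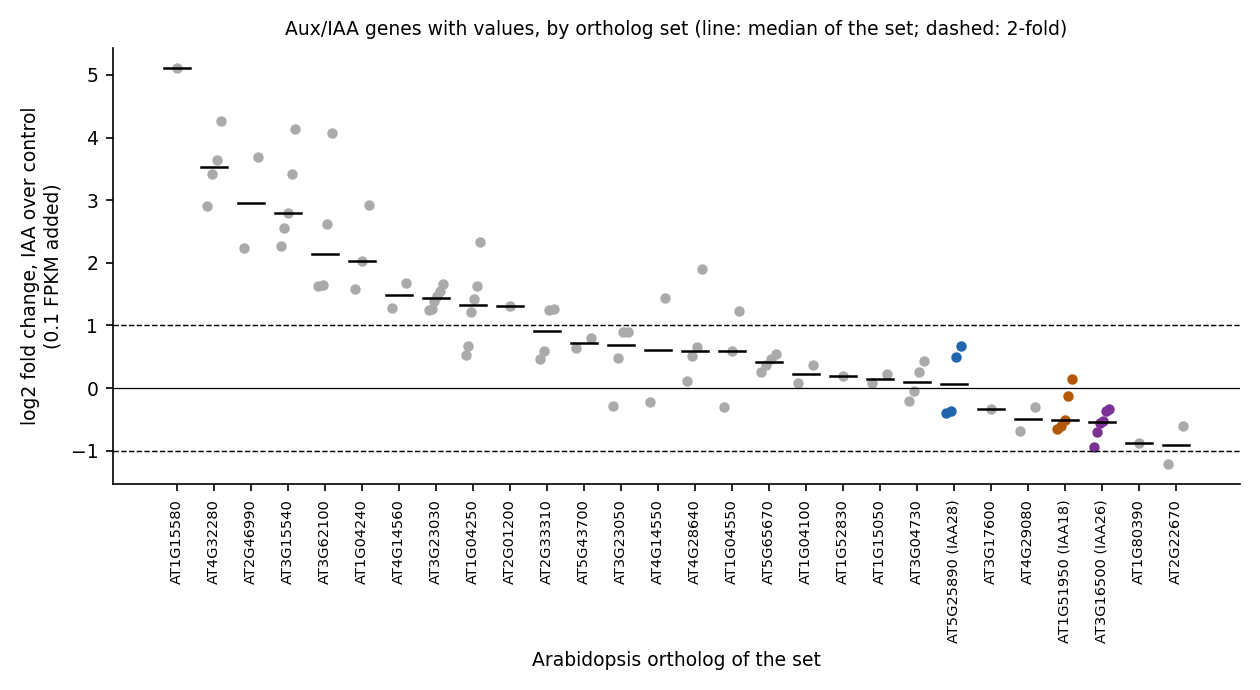
Log2 fold change of each *Aux/IAA* gene with an assigned *Arabidopsis* ortholog (0.1 FPKM added), by set in order of the median (black line), with the *IAA18* set in orange, the *IAA28* set in blue and the *IAA26* set in purple. The *IAA18* median is at -0.51 and the *IAA28* genes fall into a pair below 0 and a pair above 0, while the medians of the 10 leftmost sets lie above the dashed 2-fold line.

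Likeness to other *Aux/IAA* genes was measured as the distance, on the log2 scale over the 2 libraries, from the point given by the median of an ortholog set in each library. This point is not a member, and single members can lie nearer to other genes. For the *IAA28* set it falls between the strong and the weak pair. Nearest to it were the orthologs of *IAA10* (AT1G04100), *BnaC05.IAA.1* at a distance of 0.22, with 13.9 FPKM in the control and 18.0 FPKM with IAA, and *BnaA10.IAA.1* at 0.32, with 17.3 and 18.3 FPKM. Nearest to the median point of the *IAA18* set were *BnaC05.IAA.5*, assigned to AT1G15050 (*IAA34*), at 2.84 and 3.32 FPKM and a distance of 0.66, and *BnaC07.IAA.4*, assigned to AT4G28640 (*IAA11*), at 2.93 and 4.24 FPKM and a distance of 0.70. In each of these genes the value was higher in the IAA library, unlike the median of the *IAA18* set.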

How the data were processed

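The values deposited by the authors are FPKM of each gene, calculated in Cufflinks 2.2.1. Libraries were prepared by a TruSeq protocol, and reads were aligned by HISAT2 2.0.4 against version 4.2 of the Darmor-*bzh* assembly. The submitters' processing notes also name bcl2fastq 2.18. Gene names, positions, model lengths and orthologous sets came from the gene tables of the study, and its tissue values were not used here. The members and gene lists were chosen with earlier results of these data known. All 9 members are named, with the *IAA26* orthologs as a group and, for each ortholog set, the 2 other *Aux/IAA* genes nearest to its median point.

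Log2 fold changes were computed with 0.1 FPKM added to both values, in Python 3.11.15 (scipy 1.17.1, pandas 2.3.3, numpy 2.4.6; figures in matplotlib 3.10.9). Fragments were taken as FPKM times depth and transcript length (coding length added to the length of the gene span that the open reading frame does not cover) less the mean fragment length. Depth and fragment length were those that made the values up to 6.5 fragments whole, from 11 *Aux/IAA* genes in the control and 8 in the IAA library (mean deviation 0.00395 and 0.00316 fragments, fragment length 195 bp in both). A further 12 and 8 genes with up to 20 fragments all lay within 0.1 of a whole fragment. The ratio of the depths was 1.29. The depth fit and the ratio intervals were run on simulated whole fragments drawn for each gene alone. No fragments were shared between homeologs there, so that the division of fragments between copies could not be checked. Alternatives were pseudocounts of 1 and 0.01 FPKM, centring, upper quartile scaling, a 1.5-fold threshold, a filter on genes under 1 FPKM in both libraries, and coding length alone. The auxin pathway and organ marker lists could not be used, since gene identifiers were not paired with names.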

Additional observations from a re-analysis of the deposited data

How the results depend on the processing

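No paired analysis was possible because control and IAA were sequenced once each. The log2 fold changes of the 9 genes kept their sign in 36 of 36 recomputed values under the pseudocounts and scalings. All 36 stayed within the width of their counting interval. The median log2 ratio that centring removes was -0.09, and the log2 ratio of the upper quartiles was 0.00496. Both shifts are smaller than any of the 9 fold changes, and an equal amount added to both values cannot change a sign. The kept signs therefore could not have come out otherwise and show no robustness. The difference between *BnaC06.IAA.1* and *BnaA06.IAA.2* was -0.28 with 1 FPKM added and 0.26 with 0.01 FPKM added. The median of the 9 genes was -0.19 after 1 FPKM was added and -0.24 with a minimum of 1 FPKM, which leaves out *BnaA06.IAA.2*. The count at a fold threshold of 1.5 was 1 gene higher, an *IAA28* ortholog, and 2 genes lower, both *IAA18* orthologs, against 0 and 0 at 2-fold. Over the whole table, 2668 genes passed 2-fold upwards and 5487 downwards. Adding 1 FPKM gave 666 and 873, adding 0.01 FPKM 4311 and 9099, the minimum of 1 FPKM 1103 and 2137, and the 1.5-fold threshold 5635 and 12204. The upward part of these calls was 32.7%, and 43.3% after 1 FPKM was added. The cause of these changes was not tested. Coding length alone widened the intervals except those of *BnaA09.IAA.1* and *BnaC06.IAA.3*, and moved none of the 9 across 0, while centring moved those of *BnaA09.IAA.1* and *BnaC09.IAA.1* above 0. Depth limits *BnaA06.IAA.2* the most.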

Other observations

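The place of the 9 genes within the transcript pool of the family was smaller with IAA. In the control they held 7.76% of the summed FPKM of the 93 *Aux/IAA* genes with values, and 3.26% with IAA, while the sum of the family went from 1731 to 3369 FPKM. The *IAA28* orthologs alone held 6.35% and 2.70%, and the *IAA18* orthologs 1.41% and 0.561%. Among the 93 genes *BnaC07.IAA.3* was the 7th most abundant in the control and the 22nd with IAA, and *BnaA06.IAA.5* was the 17th and the 31st. *BnaC06.IAA.1* went from the 33rd to the 49th place. *BnaA09.IAA.1* was at the 54th place in both libraries, although its FPKM was 1.61-fold higher with IAA. *BnaC09.IAA.1* was at the 48th and 50th place. Shares and places move with the other genes of the family as well as with the 9 genes themselves, and they were computed after the values had been seen.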
